A study of Mus musculus with 6 samples.

Results

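The alpha-macroglobulin genes A2m, Pzp, Mug1 and Mug2 and their clearance receptor Lrp1 were examined in mouse liver during colorectal tumor growth. These 5 genes were chosen by name from the 20140 genes of the count table, and A2m was also picked from its large rise in these livers. The values of A2m against sham livers are therefore a description without a test. Bulk RNA was sequenced from 6 whole livers taken on day 21, with 2 livers in each of 3 groups. Sham mice were labelled as controls and received PBS. Mice labelled intra-C had CT26 cells, a mouse colorectal carcinoma line, implanted in the cecum and are called PMN (premetastatic niche) here, and mice labelled intra-S received the same cells through the spleen and are called metastasis. The routes do not stand in the labels and were taken from the study, whose legends name BALB/c for its cecal and splenic models and whose methods do not tie the sequenced livers to a strain. The age of these mice was not in the labels, no genetic change was named, and tumor cells in metastasis livers share the mouse genome, so that tumor site, route and tumor load cannot be told apart. Nothing in the labels said whether the livers of a group came from separate cohorts, and p-values measure the spread between these livers.

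Alpha-macroglobulins are large plasma proteins made mainly by the liver that trap proteinases. A proteinase cuts an exposed bait region, an internal thioester then opens and can bind the proteinase covalently, and the closed cage uncovers a site that Lrp1 binds. Lrp1, a giant endocytic receptor of the LDL receptor family on hepatocytes, macrophages and fibroblasts, removes the complex from the circulation. Alpha-macroglobulins also carry cytokines and growth factors. In rats A2m is a classical acute phase protein driven by IL-6 and STAT3, whereas the main tetrameric inhibitor of normal mouse plasma is the product of Pzp, and the murinoglobulins of Mug1 and Mug2 act as single chains.

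All family members lie on chromosome 6 (RefSeq, GRCm38.p6, the assembly that mm10 denotes). A2m spans 121636165 to 121679238 on the plus strand, followed by Mug1 from 121838496 to 121889057 and Mug2 from 122006729 to 122085968. Pzp lies 6.8 Mb away, from 128483567 to 128526720 on the minus strand, and 13.1 kb from A2ml1, another alpha-macroglobulin gene. Lrp1 is on the minus strand of chromosome 10, from 127538157 to 127621148. The coding exon that holds the thioester is shown for the 4 inhibitors because it is the feature that defines the family. The stretches were read from the mm10 annotated transcripts, 5′ to 3′ on the coding strand, and capitals mark the codons of the thioester residues Cys-Gly-Glu-Gln. In each gene they lie in exon 24, of 36 exons in A2m, Pzp and Mug1 and of 35 in Mug2.
A2m, chr6:121668081-121668140, plus strand: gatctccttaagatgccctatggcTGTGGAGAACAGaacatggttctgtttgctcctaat
Pzp, chr6:128491578-128491637, minus strand: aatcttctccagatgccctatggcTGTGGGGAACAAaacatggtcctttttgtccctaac
Mug1, chr6:121878946-121879005, plus strand: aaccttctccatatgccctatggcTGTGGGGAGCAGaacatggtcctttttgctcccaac
Mug2, chr6:122075180-122075239, plus strand: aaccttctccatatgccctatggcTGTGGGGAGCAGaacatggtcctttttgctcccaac
The Mug1 and Mug2 stretches were the same in all 60 bases. Over the whole coding sequence, Mug1 and Mug2 were 93.3% identical, whereas A2m shared 67.2% with Mug1, 65.7% with Mug2 and 63.7% with Pzp. This likeness bears on the counts, because the authors counted uniquely aligned reads. Of all windows of 100 bases in the transcript, 27.1% of those of Mug2 and 7.90% of those of Mug1 also occurred in another gene, chiefly in each other or in the pseudogene Mug-ps1. The counts of Mug1 and Mug2 are uncertain to that extent. In Pzp 2.34% of windows were shared, with the overlapping noncoding gene Gm10069, which had 11 to 34 counts per liver. A2m and Lrp1 shared none.

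The stretch upstream of the start site is shown for Pzp, Mug1 and Mug2, since these paralogs moved to different degrees. RefSeq promoter windows were matched for 4 of the 5 genes, and A2m had no entry. Each stretch is printed 5′ to 3′ on the strand of the gene up to its earliest annotated start, with capitals marking a 6-letter HNF1 motif.
Pzp, chr6:128526721-128526970, minus strand: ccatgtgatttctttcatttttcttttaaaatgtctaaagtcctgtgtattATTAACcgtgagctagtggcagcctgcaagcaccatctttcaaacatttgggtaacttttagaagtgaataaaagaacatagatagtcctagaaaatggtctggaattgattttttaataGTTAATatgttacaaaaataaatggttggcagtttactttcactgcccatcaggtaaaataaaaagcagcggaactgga
Mug1, chr6:121838291-121838495, plus strand: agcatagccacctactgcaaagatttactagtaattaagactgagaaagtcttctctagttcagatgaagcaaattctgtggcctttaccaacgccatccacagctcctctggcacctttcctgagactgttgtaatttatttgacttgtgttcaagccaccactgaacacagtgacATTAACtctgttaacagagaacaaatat
Mug2, chr6:122006548-122006728, plus strand: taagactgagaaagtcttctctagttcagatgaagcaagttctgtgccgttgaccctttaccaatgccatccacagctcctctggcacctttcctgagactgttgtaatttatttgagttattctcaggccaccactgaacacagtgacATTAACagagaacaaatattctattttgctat
The best local alignment of the Mug1 and Mug2 stretches had 86.4% identity over 177 columns with 16 gaps, against 51.4% for Mug1 with Pzp. The motif was GTTAAT on either strand, so that it reads ATTAAC on the other, and it belongs to HNF1, a liver transcription factor. It occurred 2 times in the 250 bases before the start of Pzp and 1 time each in those of Mug1 and Mug2, and 6.52% of 27025 promoters of that length held it. The STAT motif TTCNNNGAA was found in none of these 3 windows and in 7.18% of promoters. It was found in that of Lrp1, as TTCCCAGAA, which reads as a match on both strands. The C/EBP motif TTGCNNAA, present in 9.55% of promoters, and TATAAA, present in 13.0%, were found in none of the 4 windows. The motifs were chosen after the sequences were seen, none overlapped another, and a match is a description of these letters.

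The libraries held between 32838321 and 43368309 counts. Levels are given as CPM (counts relative to the library total after TMM scaling, with factors of 0.884 to 1.14) for a gene across livers, and as TPM, which is also scaled by gene length, between genes. At these depths the 3 counts that a count of 0 still allows were equal to 0.0679 to 0.0928 CPM, for counting error only. The metastasis livers were least alike, since the chi-square of their counts, per degree of freedom, was 337, against 24.8 for sham and 73.1 for PMN. Log2 fold changes and p-values come from edgeR's quasi-likelihood test over 16370 genes in 1 fit, and a gene was called at a Benjamini-Hochberg adjusted p under 0.05. All 5 genes passed the filter on low counts. Hepatocyte markers summed to 114593 and 120924 CPM in sham livers, 112929 and 152807 CPM in PMN livers and 136258 and 183295 CPM in metastasis livers. In whole liver, fewer cells of a type and less RNA per cell cannot be told apart.

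A2m went from near the counting limit to a moderate level in every liver of a tumor-bearing mouse, and Pzp rose from an already high level. A2m had 3 counts and 0 counts in sham livers. It had 4607 and 3317 counts in PMN livers and 3714 and 9331 counts in metastasis livers. These were equal to 0.0739 and 0 CPM in sham livers, 117 and 103 CPM in PMN livers, and 108 and 229 CPM in metastasis livers. All 4 livers of tumor-bearing mice lay far above both sham livers, and metastasis liver 2 stood above the other three. Against the 3 counts pooled over sham livers, the ratio was 3127 in PMN livers (95% counting interval 1070 to 15168) and 4911 in metastasis livers (1680 to 23819), with 3060 in metastasis liver 1 and 6468 in liver 2. The width of these intervals came from sham livers, whose 3 counts have an exact Poisson interval of 0.619 to 8.77. By fitted log2 fold change, A2m ranked 5 of 16370 genes in each comparison with sham, which restates how it was picked.

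**Figure D1:**
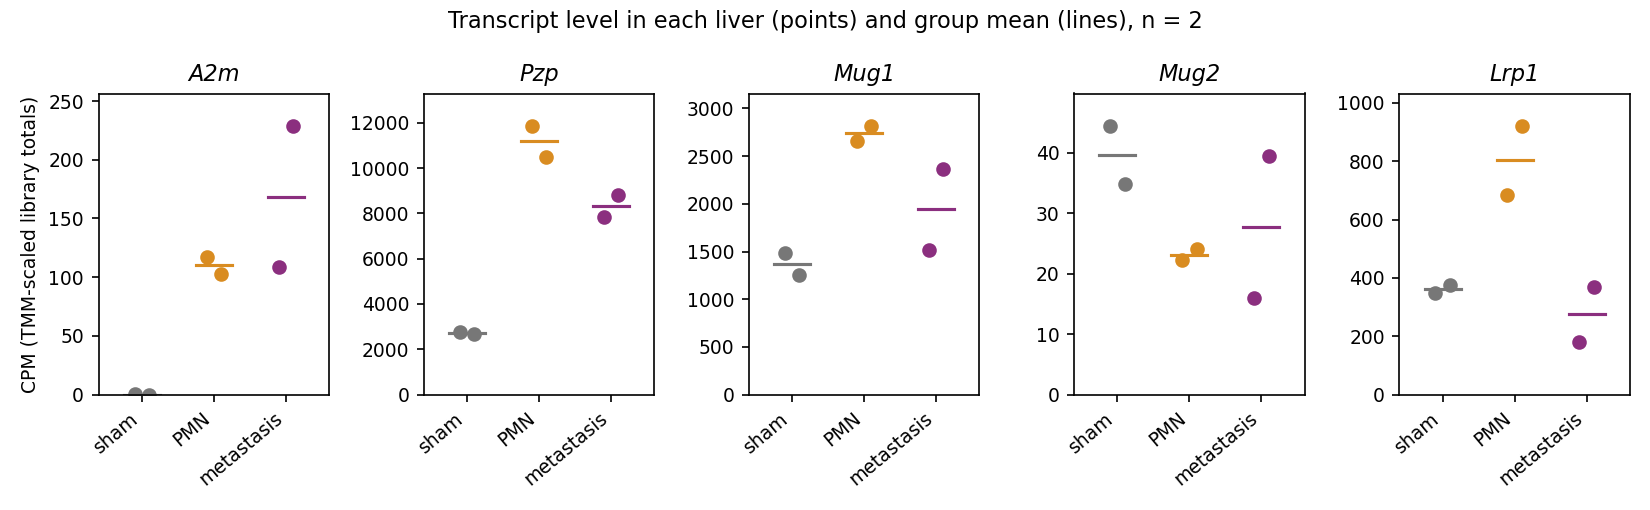
Level of A2m, Pzp, Mug1, Mug2 and Lrp1 in each liver (points, n = 2 per group) and the mean of each group (lines), in CPM after TMM scaling, with an axis from 0 for each gene. A2m was at 0.0739 and 0 CPM in sham livers, Pzp was higher in all 4 livers of tumor-bearing mice, and Lrp1 was highest in PMN livers.

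Pzp, the main alpha-macroglobulin of mouse plasma, was at 2778 and 2684 CPM in sham livers. It reached 11871 and 10505 CPM in PMN livers and 7858 and 8823 CPM in metastasis livers. The groups did not overlap, and the livers within each differed by no more than 1.13-fold. Pzp was called higher in PMN livers (log2 fold change 2.03, standard error 0.23, adjusted p = 0.00942) and in metastasis livers (1.61, standard error 0.23, adjusted p = 0.0133). Of all genes tested, 4.92% were called higher and 2.38% lower in PMN livers, and 6.78% and 3.95% in metastasis livers. Pzp was the one called gene of the 4 tested here, in each comparison. The PMN call was lost without either PMN liver (adjusted p = 0.0833 and 0.0701), and both calls were lost without either sham liver (adjusted p between 0.151 and 0.157). With only the sham and metastasis livers in the fit, the metastasis call was lost (adjusted p = 0.0558).

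Mug1 and Mug2, whose products are murinoglobulins, had opposite signs in their differences from sham. Mug1 was at 1483 and 1253 CPM in sham livers, 2661 and 2819 CPM in PMN livers, and 1515 and 2369 CPM in metastasis livers. Both PMN livers lay above both sham livers, and metastasis liver 1 was just above them. Its log2 fold change was 1.00 in PMN livers (standard error 0.28, adjusted p = 0.0812) and 0.51 in metastasis livers (standard error 0.28, adjusted p = 0.271), neither of them called. Mug2 was far less abundant, at 44.4 and 34.8 CPM in sham livers, 22.2 and 24.04 CPM in PMN livers, and 15.9 and 39.4 CPM in metastasis livers. Both PMN livers lay below sham livers, whereas metastasis liver 2 was among them. Its log2 fold changes were -0.78 (standard error 0.41, adjusted p = 0.277) and -0.52 (standard error 0.41, adjusted p = 0.435). When the fit held PMN and sham livers alone, Mug1 was called higher (adjusted p = 0.00348) and Mug2 lower (adjusted p = 0.0143), as both were without metastasis liver 1 (adjusted p = 0.00208 and 0.014) or metastasis liver 2 (0.00245 and 0.0143). DESeq2 called Mug1 (adjusted p = 0.0117). In metastasis livers, both differences turned on which liver was kept. Mug1 was called higher without metastasis liver 1 (log2 fold change 0.80, adjusted p = 0.0129) and was at 0.15 without metastasis liver 2, whereas Mug2 was called lower without metastasis liver 2 (-1.32, adjusted p = 0.00413) and was at -0.0048 without metastasis liver 1.

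Lrp1, the receptor, was at 350 and 375 CPM in sham livers, 684 and 921 CPM in PMN livers, and 181 and 370 CPM in metastasis livers. Both PMN livers lay above all others, metastasis liver 1 lay lowest, and metastasis liver 2 lay within the sham range. The log2 fold change was 1.15 in PMN livers (standard error 0.37, adjusted p = 0.109, unadjusted p = 0.0183) and -0.40 in metastasis livers (standard error 0.36, adjusted p = 0.501). When the fit held PMN and sham livers alone, Lrp1 was called higher in the former (adjusted p = 0.0049), as it was without metastasis liver 1 or 2 (adjusted p = 0.00346 and 0.00408) and by DESeq2 (adjusted p = 0.0304). In metastasis livers, it was called lower without metastasis liver 2 (-1.003, adjusted p = 0.012), and without metastasis liver 1 its log2 fold change was 0.03. Marker lists were read for the cells known to carry this receptor, beside all genes, of which 4.92% were called higher and 2.38% lower in PMN livers and 6.78% and 3.95% in metastasis livers. Hepatocyte marker sums, given above, overlapped between PMN and sham livers, and both metastasis livers lay above both sham livers. Alb made up most of these sums, at 94260 and 87423 CPM in sham livers. Of the 9 markers, 1 was called higher in PMN livers (Apob) and 1 lower in metastasis livers (Cyp2e1). Ttr, Fah and Cyp2e1 had negative log2 fold changes in both comparisons with sham. Alb, Apoa1, Apob, Cps1 and Hnf4a had positive ones, and Asgr1 changed sign. Kupffer cell and macrophage markers summed to 258 CPM in each sham liver, 1177 and 1438 CPM in PMN livers and 789 and 1542 CPM in metastasis livers, with 12 and 11 of 15 called higher. Stellate cell and fibroblast markers summed to 303 and 318 CPM, 381 and 392 CPM, and 583 and 612 CPM in the same order, with 0 and 5 of 14 called higher. In neither list was a marker at 0 in both sham livers. Their part in the Lrp1 values was not tested.

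The levels of all 5 genes did not overlap between PMN and sham livers, as for 68.4% of all genes tested. Between metastasis and sham livers, A2m, Pzp and Mug1 did not overlap in CPM, as for 60.4% of all genes, but Mug1 did overlap in TPM, where metastasis liver 1 lay below both sham livers. With 2 livers per group, the smallest p of a two-sided exact permutation test is 0.333.

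**Figure D2:**
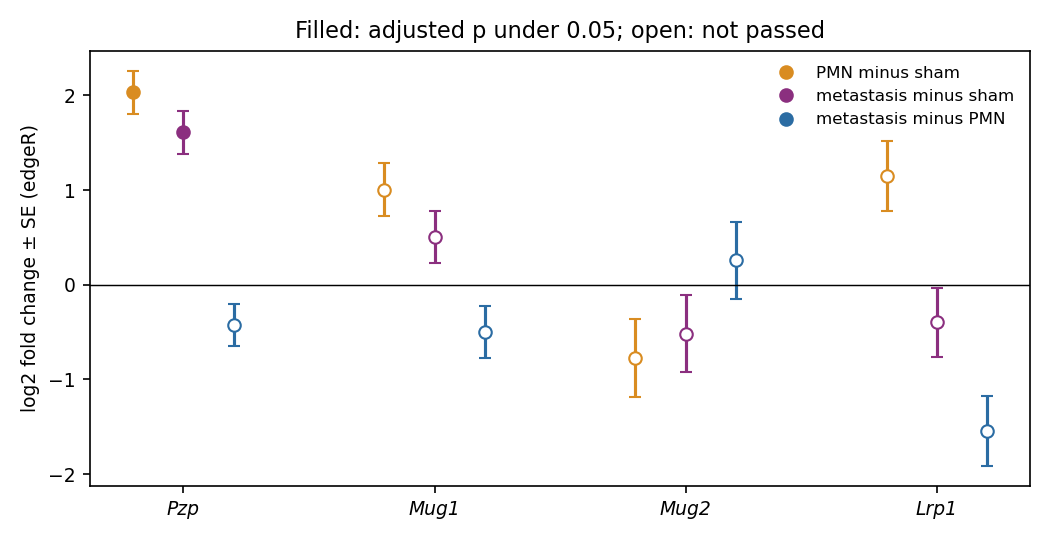
Log2 fold change (points) with its standard error (bars) of Pzp, Mug1, Mug2 and Lrp1 in the comparisons PMN minus sham, metastasis minus sham and metastasis minus PMN, with filled points for an adjusted p under 0.05. Pzp against sham holds the filled points (2.03 and 1.61), and the widest spread of comparisons is that of Lrp1, from 1.15 to -1.54. A2m was chosen by its rise and is not plotted.

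The metastasis and PMN livers were also compared directly, in the same fit over all 6 livers. None of the 5 genes was called, with the sham livers in that fit or without them. The log2 difference, metastasis minus PMN, was 0.62 for A2m (standard error 0.47, adjusted p = 0.583), -0.42 for Pzp (standard error 0.22, adjusted p = 0.441), -0.50 for Mug1 (standard error 0.28, adjusted p = 0.462) and 0.26 for Mug2 (standard error 0.41, adjusted p = 0.800). Lrp1 had the largest difference, -1.54 (standard error 0.37, adjusted p = 0.285, unadjusted p = 0.00493), and was called lower by DESeq2 (adjusted p = 0.00899). Levels of Pzp, Mug1 and Lrp1 did not overlap between these groups, as for 43.3% of genes tested. edgeR called 0% of all genes higher and 0% lower in this comparison, whereas an unadjusted p under 0.05 was reached by 1144 genes upward and 1049 downward, and DESeq2 called 234 and 272. Without metastasis liver 2, Lrp1 (-2.15, adjusted p = 0.002), Mug1 (-0.86, adjusted p = 0.0143) and Pzp (-0.51, adjusted p = 0.0468) were called lower than in PMN livers, and A2m was at -0.02. In that fit 1312 genes were called higher and 1572 lower over all 17429 tested.

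Pzp held a larger share of the family's transcripts in livers of tumor-bearing mice than in sham livers. On the TPM scale, Pzp was at 1336 and 1287 in sham livers, 4843 and 4576 in PMN livers, and 2967 and 3569 in metastasis livers. By TPM it ranked 99 and 102 of all genes in sham livers, 31 and 33 in PMN livers, and 51 and 43 in metastasis livers. Mug1 was next, at 667 and 562 TPM, 1017 and 1150 TPM, and 535 and 898 TPM in the same order. The levels of Pzp and Mug1 did not overlap in any group. A2m was at 35.8 and 33.5 TPM in PMN livers and 30.6 and 69.4 TPM in metastasis livers, and Mug2 was at 8.49 and 9.80 TPM and at 5.61 and 14.9 TPM. In sham livers Mug2 was at 19.99 and 15.6 TPM and A2m at 0.0266 and 0 TPM, so the order of these genes was the opposite there. A2m lay above Mug2 in each of the 4 livers of tumor-bearing mice.

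The 4 inhibitors summed to 1944 ± 112 TPM in sham livers, 5837 ± 95.3 TPM in PMN livers and 4045 ± 716 TPM in metastasis livers (SD, n = 2 each). Pzp made up 67.5 ± 2.11% of that sum in sham livers, 80.7 ± 1.92% in PMN livers and 81.1 ± 3.83% in metastasis livers. Mug1 made up 31.6 ± 2.00%, 18.6 ± 1.92% and 17.4 ± 3.25%. A2m, despite its large ratio, made up 0.594 ± 0.0190% in PMN livers and 1.19 ± 0.466% in metastasis livers. The mean gain over sham was 3398 TPM for Pzp and 34.7 TPM for A2m in PMN livers, and 1957 and 49.98 TPM in metastasis livers. The ratio of Pzp to Mug1, which needs no scaling between libraries, was 2.00 and 2.29 in sham livers, 4.76 and 3.98 in PMN livers, and 5.54 and 3.98 in metastasis livers. That of Mug1 to Mug2 was 33.4 and 36.0, 120 and 117, and 95.4 and 60.2. Neither ratio overlapped between sham livers and livers of tumor-bearing mice. The ratio of Pzp to Lrp1 was 25.3 and 22.8 in sham livers, 55.2 and 36.3 in PMN livers, and 138 and 75.9 in metastasis livers, so that no group overlapped another. Single genes did not overlap for 68.4% of genes tested between PMN and sham livers, and 60.4% between metastasis and sham livers. Between metastasis and PMN livers the share was 43.3%. No such share was computed for ratios, so their separation in groups of 2 is a description.

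**Figure D3:**
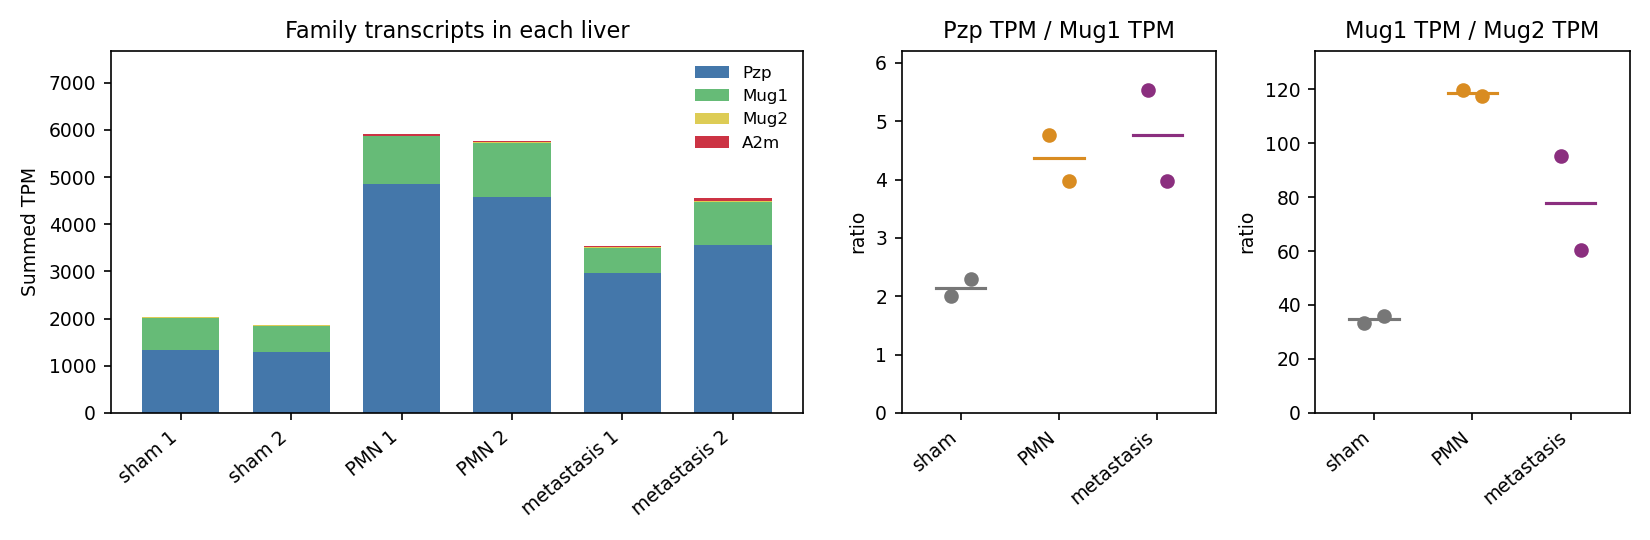
Left, summed TPM of Pzp, Mug1, Mug2 and A2m in each liver, with bars stacked from 0. Right, the ratio of Pzp to Mug1 and of Mug1 to Mug2 in TPM, with a point per liver and a line at the mean (n = 2 per group). Pzp fills most of every bar, and both ratios are lowest in sham livers (2.00 and 2.29 for Pzp to Mug1).

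The wider thioester family was counted next. The name is used here for relatives of the alpha-macroglobulins, complement C3, C4 and C5 included, and does not mean that each holds a thioester. Of the 11 tested genes of this family, 7 were called higher and 0 lower in PMN livers and 4 and 0 in metastasis livers. These counts include A2m, whose rise picked it, and Pzp. Over all genes tested, the shares called were 4.92% higher and 2.38% lower in PMN livers and 6.78% and 3.95% in metastasis livers. The median log2 fold change was 1.80 and 1.03, against 0.01 and 0.04 for all genes, and the former was 1.79 with Cd109 at the limit that its 0 sham counts allow. A2ml1, an alpha-macroglobulin better known from skin, was at 1.58 and 1.72 CPM in sham livers, 16.6 and 14.2 CPM in PMN livers, and 15.4 and 39.7 CPM in metastasis livers. It was called higher in both (log2 fold change 3.22 and 4.06, standard error 0.47 and 0.48, adjusted p = 0.0177 and 0.00912). Like A2m, it was highest in metastasis liver 2. C4a rose by 2.27 in PMN livers (adjusted p = 0.0118) and C4b by 1.66 (adjusted p = 0.0118), although reads of these near-identical copies can be split between them. C4b was also called higher in metastasis livers, by 1.302 (adjusted p = 0.0158). C3 and Hc, which encodes C5, are named although the naming rule does not reach them. They were called higher in PMN livers, with log2 fold changes of 1.79 and 1.80 (adjusted p = 0.0154 and 0.0121). In metastasis livers they were at 0.65 and 0.69 (adjusted p = 0.129 and 0.0907). Cd109, a membrane-anchored relative, was at 0 counts in both sham livers and was listed at 0.407 and 0 CPM in PMN livers and at 0 and 3.34 CPM in metastasis livers.

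Among other plasma proteinase inhibitors of the liver, 28 were tested. Of these, 11 were called higher and 1 lower in PMN livers, and 16 and 1 in metastasis livers, with medians of 1.08 and 1.21. The shares over all genes were 4.92% and 2.38%, and 6.78% and 3.95%, so that the share called lower was near that of all genes. Serpina3n, a serine proteinase inhibitor and acute phase gene, was at 576 and 567 CPM in sham livers, 6167 and 5290.0 CPM in PMN livers, and 5025 and 4391 CPM in metastasis livers (log2 fold change 3.32 and 3.04, standard error 0.24 in both, adjusted p = 0.00543 and 0.00469). Itih3, a heavy chain of the inter-alpha-trypsin inhibitor family, rose by 3.14 and 2.54 (adjusted p = 0.0058 and 0.00578). Itih4 of the same family rose by 2.74 and 1.59 (adjusted p = 0.0118 and 0.032), and the kininogen gene Kng1 by 1.87 and 1.97 (adjusted p = 0.019 and 0.0139). Serpina1d, a copy of the alpha-1-antitrypsin genes, had the largest rise of the list, 5.70 and 6.77 (adjusted p = 0.00738 and 0.00578), though its near-identical copies make its counts uncertain. The called gene in the other direction was Serpinf1, which encodes PEDF, at -1.26 and -1.41 (adjusted p = 0.0227 and 0.0142). Pzp rose by less than Serpina3n and Itih3 in both comparisons, with no test of that difference.

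Of 15 tested genes of the LDL receptor family, Lrp1 included, 1 was called higher and 0 lower in PMN livers, where 4.92% and 2.38% of all genes were. In metastasis livers 1 was called higher and 2 lower, where 6.78% and 3.95% of all genes were, with medians of 0.31 and 0.44. Sorl1, a sorting receptor, was higher in both, from 0.591 and 0.860 CPM in sham livers to 6.11 and 7.80 CPM in PMN livers and 8.46 and 5.35 CPM in metastasis livers (log2 fold change 3.25 and 3.24, adjusted p = 0.0114 and 0.00918). Lrp3 and Lrp4 were lower in metastasis livers, by log2 fold changes of -1.38 and -1.45 (adjusted p = 0.021 and 0.0135). Among 16 tested partners of Lrp1, which comprise its chaperone, adaptors and cleaving enzymes, 5 were called higher in PMN livers and 4 in metastasis livers, with none lower and medians of 0.44 and 0.35. The endocytic adaptor genes Dab1 and Dab2 were among them in both, Dab2 with log2 fold changes of 1.48 and 1.34 (adjusted p = 0.0382 and 0.0397). Dab1 lay at 2.93 CPM or less in every liver. Nos1ap, which encodes an adaptor protein, and Adam17, which encodes a membrane sheddase, rose in PMN livers by 4.005 and 0.98 (adjusted p = 0.0185 and 0.0368). Nos1ap lay at only 0.616 and 0.294 CPM in sham livers. Mmp14, a membrane metalloproteinase, and Adam10, another sheddase, rose in metastasis livers by 1.55 and 1.18 (adjusted p = 0.0244 and 0.0206), and Adam10 also rose in PMN livers (0.94, adjusted p = 0.0433). Lrpap1, the chaperone of Lrp1, was not called (-0.15 and -0.40, adjusted p = 0.696 and 0.272), and is named here outside the naming rule.

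Lrp1 clears many ligands besides alpha-macroglobulins. Of 24 tested, 4 were called higher and 1 lower in PMN livers, and 10 and 1 in metastasis livers, with medians of 1.02 and 1.62, against 4.92% and 2.38%, and 6.78% and 3.95%, of all genes. The 1 called lower is near the share of all genes. Hpx, the heme carrier hemopexin, rose from 3048 and 2961 CPM in sham livers to 23316 and 22256 CPM in PMN livers, and was called higher in both comparisons (log2 fold change 2.92 and 3.02, adjusted p = 0.00609 and 0.00469). Thbs1, which encodes the matrix glycoprotein thrombospondin-1, rose by 3.94 and 5.62 (adjusted p = 0.0245 and 0.00936), from 0.148 and 0.589 CPM in sham livers. Fn1, which encodes fibronectin, rose by 2.14 and 1.85 (adjusted p = 0.00817 and 0.00936), and Serping1, the C1 inhibitor gene, by 1.45 and 1.18 (adjusted p = 0.02 and 0.0264). Lipc, the hepatic lipase gene, was lower in both, at -1.70 and -1.85 (adjusted p = 0.00962 and 0.00668). Mmp9 and Plau, which encode gelatinase B and urokinase, rose by 4.73 and 3.58 in metastasis livers (adjusted p = 0.0307 and 0.0496), both from below 0.5 CPM in sham livers. Like Thbs1, they passed the filter on low counts only with livers of tumor-bearing mice, where they were high.

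The targets of the inhibitors included several neutrophil enzymes. Of 25 tested proteinases that alpha-macroglobulins bind, 4 were called higher and 1 lower in PMN livers, and 8 and 1 in metastasis livers, with medians of 0.59 and 1.46, beside 4.92% and 2.38%, and 6.78% and 3.95%, of all genes. Here too the 1 called lower is near the share of all genes. The 4 were Elane, Ctsg, Prtn3 and Mmp8, which encode the neutrophil proteinases elastase, cathepsin G, proteinase 3 and collagenase. All 4 were at or near 0 in sham livers and passed the filter on low counts through the groups where they were high. Elane had 0 counts in both sham livers, 5.76 and 13.9 CPM in PMN livers, and 7.90 and 6.75 CPM in metastasis livers. Ctsg had 0 counts in both sham livers and 4.02 to 7.61 CPM in livers of tumor-bearing mice. Prtn3 was at 0.197 and 0.181 CPM in sham livers, 56.2 and 49.7 CPM in PMN livers, and 17.1 and 48.8 CPM in metastasis livers. Adamts7, a matrix proteinase gene, was the one called lower, at -1.92 and -1.77 (adjusted p = 0.0168 and 0.0156). F2 and Plg, which encode prothrombin and plasminogen and are named outside the rule, were not called in either comparison. The neutrophil marker list, which shares Elane, Mmp8 and Mmp9 with the proteinases, summed to 3.94 and 5.48 CPM in sham livers. The sums were 298 and 657 CPM in PMN livers, and 442 and 1119 CPM in metastasis livers. Of its 13 genes, 12 and 13 were called higher, beside 4.92% and 6.78% of all genes. Elane, Mpo and Camp were at 0 in both sham livers, and Mmp8, Ltf, Ngp, Ly6g and Retnlg at 0.226 CPM or less. These genes too passed the filter on low counts through the groups where they were high. The part of neutrophils in the proteinase values was not tested.

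Of 20 tested cytokines and growth factors that alpha-macroglobulins carry, 3 were called higher and 1 lower in PMN livers, and 4 and 2 in metastasis livers, with medians of 0.43 and 1.03, where all genes had 4.92% and 2.38%, and 6.78% and 3.95%. Inhbb, which encodes the activin B subunit, rose by 6.30 and 8.27 (adjusted p = 0.0118 and 0.00579), from 0.148 and 0.0679 CPM in sham livers to 6.19 and 11.1 CPM in PMN livers and 50.2 and 17.5 CPM in metastasis livers. Its sham levels were near the counting limit, and it passed the filter on low counts through the groups where it was high. Il1b rose by 3.78 and 3.47 (adjusted p = 0.0316 and 0.0303) and Tgfb1 by 1.26 and 1.66 (adjusted p = 0.0456 and 0.0198). Those called lower encode hepcidins, hormones of iron balance that alpha-2-macroglobulin binds in plasma. Hamp was at 537 and 536 CPM in sham livers, 65.3 and 464 CPM in PMN livers, and 0.437 and 0.981 CPM in metastasis livers, and was called lower in the latter (adjusted p = 0.00965). Hamp2 was called lower in both (adjusted p = 0.0176 and 0.00688), and its reads can be split with the near-identical Hamp.

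The IL-6 type cytokine and STAT3 genes, known as inducers of A2m in other settings, had 30 tested. Of these, 5 were called higher and 2 lower in PMN livers, and 7 and 1 in metastasis livers, with medians of 0.74 and 0.60, compared with 4.92% and 2.38%, and 6.78% and 3.95%, of all genes. The share called lower in metastasis livers was near that of all genes. Socs3, a feedback inhibitor that STAT3 induces, was at 1.40 and 2.22 CPM in sham livers, 36.1 and 24.1 CPM in PMN livers, and 9.86 and 31.0 CPM in metastasis livers (log2 fold change 4.05 and 3.49, standard error 0.61 and 0.60, adjusted p = 0.0195 and 0.0213). Osmr, the oncostatin M receptor gene, rose by 3.24 and 2.68 (adjusted p = 0.013 and 0.0154). Il6st, which encodes the shared receptor chain gp130, rose by 2.24 in PMN livers (adjusted p = 0.013). Junb, an immediate early gene, rose by 2.41 and 3.57 (adjusted p = 0.0368 and 0.0133). Stat3 itself, named after its values were seen, rose by 1.82 and 1.03 (adjusted p = 0.00785 and 0.0236). Lifr, the leukemia inhibitory factor receptor gene, was lower in both (-1.04 and -1.78, adjusted p = 0.0457 and 0.011), and Cebpa, a hepatocyte transcription factor gene, was lower in PMN livers (-1.70, adjusted p = 0.0423). In metastasis livers, the immediate early genes Fos and Jun were also called higher, and Fos was at 51.6 CPM in metastasis liver 1 against 5.37 CPM in liver 2. Il6 was at 0.0493 and 0 CPM in sham livers and at 0.0619 to 1.40 CPM in livers of tumor-bearing mice, and was not called (adjusted p = 0.288 and 0.0601).

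**Figure D4:**
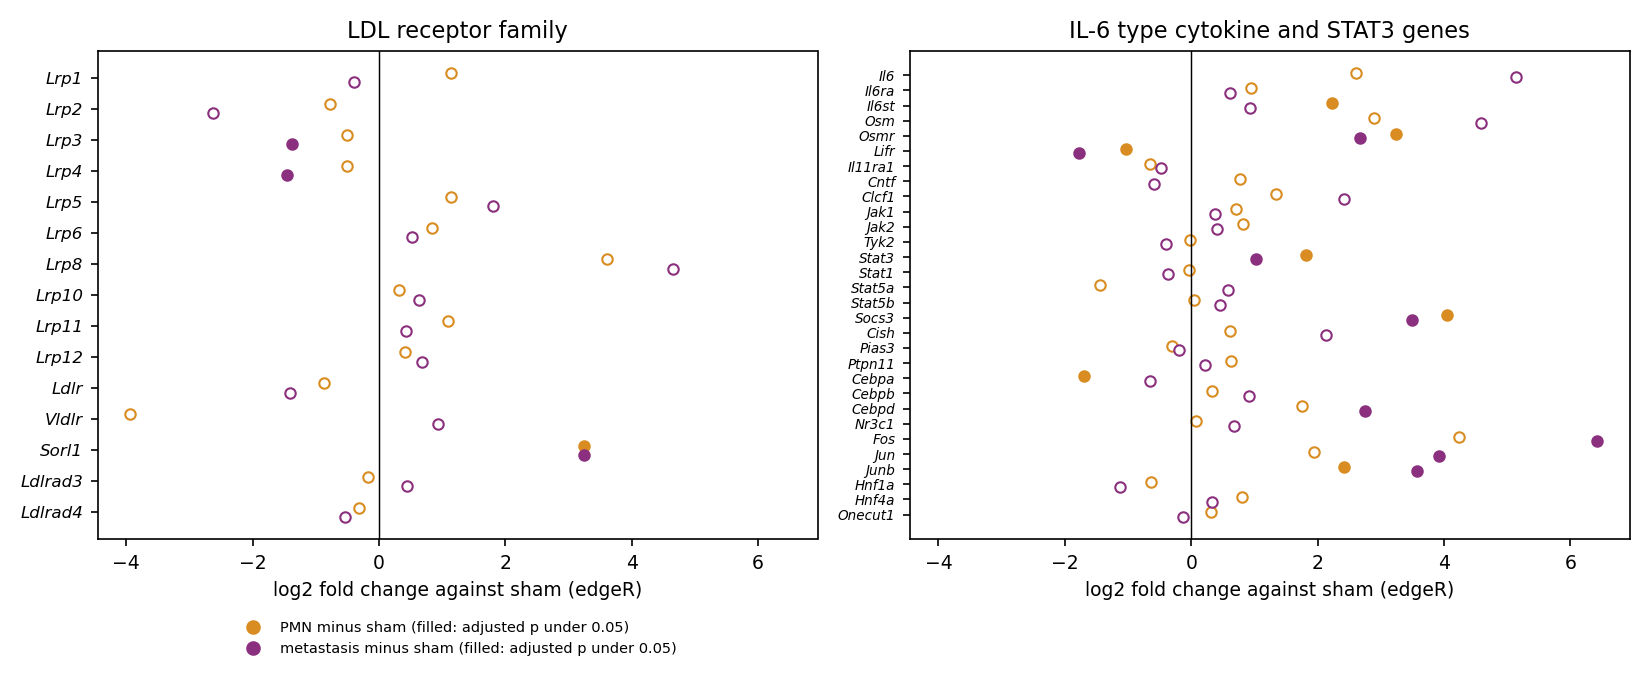
Log2 fold change against sham of each tested gene of the LDL receptor family (left) and of the IL-6 type cytokine and STAT3 list (right), in PMN (upper point of each pair) and metastasis livers (lower point), with filled points for an adjusted p under 0.05. Lrp1 has an open point on each side of 0, at 1.15 and -0.40, and Sorl1 has 2 filled points. Both comparisons use the same sham livers, and values of genes near 0 in sham livers depend on the prior count of the fit.

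The number of called genes in these 8 lists moved with the libraries in the fit, in an alternative chosen after the data were seen. Without either sham liver, no gene of any list was called in either comparison with sham, and neither was any other gene. Without either PMN liver, the calls higher in PMN livers fell to 1 in the thioester family, 3 in the other plasma inhibitors and 0 in the IL-6 type list. Without metastasis liver 1 or 2, they were 8, 23 and 12, with 1, 2 and 5 called lower, while calls over all genes went from 806 higher and 389 lower to 2546 and 2112 without liver 1 and 2502 and 2089 without liver 2, so that the lists moved with all genes. The calls of these lists in metastasis livers also moved with the PMN or metastasis liver left out, and so did the calls over all genes.

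The genes whose log2 CPM followed each member most closely over the 6 livers were found among 7260 genes at a mean of 10 CPM or more, as Pearson correlations that describe these livers, share their libraries and rest on 3 groups of 2. For A2m they restate the rise by which it was picked, and its sham values rest on 3 counts and 0 counts. Those nearest to A2m were Clca3a1 (r = 0.999), Hpx (0.998), Slc11a1, Ms4a6d and Cd53. The last 3 are known from myeloid cells or leukocytes, and their means in sham livers, 1.79 to 4.53 CPM, lay below the minimum of 10 CPM that they passed over all livers. Those nearest to Pzp were Itih3 (0.999), Il13ra1, Fga, Aqp1 and Ambp, of which Itih3, Fga, the fibrinogen alpha chain, and Ambp encode plasma proteins made by hepatocytes. For Mug1 they were Atp11a (0.995), Rcan1, Dnajc3, Cyp20a1 and C8a, for Mug2 Wdr77 (0.996), Cnpy3, Ciao2b, Rpl7l1 and Kctd2, and for Lrp1 Cpne3 (0.995), Cpn2, Zw10, Ldhd and Scarb2. Among the other members, Pzp and Mug1 were most alike (0.861).

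The chromosomal neighbours of A2m and Pzp were counted beside the shares of all genes called, 4.92% higher and 2.38% lower in PMN livers and 6.78% and 3.95% in metastasis livers. Of the 10 listed genes nearest to A2m, 5 on each side and all tested, 0 were called in PMN livers, and Usp18 was called higher and Slc6a13 and Slc6a12 lower in metastasis livers. Mug1 and Mug2 are among these 10, as are the murinoglobulin pseudogenes Mug4-ps and Gm7298, which had 5 to 39 counts per liver. Of the 10 nearest to Pzp, 7 were tested and A2ml1 was the one called, higher in both comparisons. Fkbp4, a cochaperone gene 3 places from Pzp, was at 8467 and 9399 counts in sham livers and 855 to 4558 counts in livers of tumor-bearing mice, and was not called (adjusted p = 0.401 and 0.153).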

How the data were processed

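Polyadenylated RNA of 6 whole livers was analysed. Per the notes of the submitters, the authors aligned reads to mm10 with HISAT2 2.1.0 and counted uniquely aligned reads per gene with featureCounts of Subread 2.0.6. The authors deposited raw counts without normalization and TPM values calculated from them, and all columns were mapped to a liver. The annotation used and whether counting used strand are not given in the sources used here. Genes were tested by quasi-likelihood with edgeR 4.0.16 (R 4.3.3) on the deposited counts, with TMM, filterByExpr (count minimum 10) and Benjamini-Hochberg adjustment over all tested genes. Alternatives used DESeq2 1.42.0, limma 3.58.1 on log2(TPM + 1) and log2(TPM + 0.1), other filters, scalings and samples in the fit. Sequences were compared with Biopython 1.88. Members and gene lists were chosen with earlier results of these data known. The text names the members, up to 4 called genes per direction, list and comparison with the largest log2 fold change, the 5 genes most correlated with each member and, as counts, 5 neighbours on each side of A2m and Pzp. The same replicate number did not pair livers by any label. Some genes that this rule names are not reported here.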

Additional observations from a re-analysis of the deposited data

How the results depend on the processing

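Pzp kept its direction under all 16 alternatives in both comparisons with sham, with log2 fold changes of 1.77 to 2.14 and adjusted p of 4.55e-18 to 0.151 in the PMN livers, and of 1.31 to 1.70 and 2.06e-11 to 0.157 in the metastasis livers, called in 12 and 13 of them. With the replicate number as a replicate block, the log2 fold change of Pzp was 2.03 (adjusted p = 0.0172) and 1.61 (adjusted p = 0.0209), and the number of members called was 1, 1 and 0. The numbers share no source, and the deviations of same-numbered livers correlated by -0.03, 0.08 and 0.04. Of the 4 tested members, 1 was called between PMN and sham livers, 3 by DESeq2, 4 with only the 2 groups compared and 0 to 4 with each liver left out. Between metastasis and sham livers, 1 was called, 0 with only the 2 groups and 0 to 3 with each liver left out, and between metastasis and PMN livers 0, 1 by DESeq2 and 0 to 3 with each liver left out. Such fits assume that a lone liver varies like the others. With each liver left out, the log2 fold change of Lrp1 between metastasis and sham livers ran from -1.003 to 0.0348 and turned without metastasis liver 1. Between metastasis and PMN livers, that of A2m ran from -0.0241 to 1.06 and that of Mug2 from -0.54 to 0.77, and both turned without metastasis liver 2. The cause was not tested. The share of A2m in the PMN livers was 0.781% by raw counts, which are not divided by length. Over all genes, 806 were higher and 389 lower in the PMN livers, against 2548 and 2223 with only the 2 groups, 1662 and 1049 by DESeq2, 569 and 801 without TMM and 497 and 896 by limma on log2(TPM + 1). In the metastasis livers 1110 and 646 became 276 and 116, 2003 and 1397, 838 and 1115, and 685 and 1553. With each liver left out, 0 to 2546 genes were higher in the PMN livers and 0 to 3010 in the metastasis livers. Without TMM the median of all genes was at -0.25 and -0.23. Depth limits A2m in sham livers, where the upper bound of its 3 counts stands for 0.103 CPM.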

Other observations

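The pseudogene Mug-ps1, which lies in the murinoglobulin cluster and shares 1029 of its 4287 windows of 100 bases with other genes, had 1702 and 2415 counts in sham livers, 1772 and 1381 in PMN livers, and 66 and 1343 in metastasis livers. The metastasis livers differed by 17.1-fold in CPM, more than for any of the 4 family members, of which Mug2 differed by 2.48-fold between the same livers. The pseudogene Gm10319, next to Mug2, had 7 and 100 counts in metastasis livers, against 165 to 283 in the other livers.

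Vldlr, the very low density lipoprotein receptor gene and a relative of Lrp1, was at 4.04 and 2.92 CPM in sham livers, 0.204 and 0.247 CPM in PMN livers, and 11.7 and 1.64 CPM in metastasis livers. It was not called in any comparison by edgeR's quasi-likelihood test (adjusted p = 0.0634 between PMN and sham livers), and it was singled out after its values were seen. Furin, which encodes the proteinase that cuts the Lrp1 precursor, was at 424 CPM in metastasis liver 1 and 71.6 CPM in liver 2, against 90.8 to 97.8 CPM in sham livers and 210 and 121 CPM in PMN livers.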
